A study of Mus musculus with 4 samples.

Results

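The SLAM receptors and SAP adaptors examined here were 10 listed genes: the receptors and ligands Slamf6, Slamf7, Cd244 (Cd244a in the annotation), Cd48, Ly9 and Cd84, the adaptors Sh2d1a, Sh2d1b1 and Sh2d1b2, and the kinase gene Fyn. They were chosen by symbol, and every distinct peak of N6-methyladenosine (m6A) that the deposited list assigned to the Ensembl identifier of a listed gene was taken. This gave 17 peaks in 10 genes, out of 20727 distinct peaks in 12351 genes. The cells were natural killer (NK) cells sorted from the spleens of mice of the strain C57BL/6. Per the study's methods they had been expanded in the animals for 1 to 2 months with the plasmid pLIVE-IL-15, which drives expression of interleukin 15. In all groups poly(A) RNA was cut into fragments of about 100 nt. There were 4 libraries, of which 2 were immunoprecipitates made with an m6A antibody from Synaptic Systems and 2 were input RNA made without antibody. Mice of the study were 6 to 10 weeks old per its methods, which do not say this for each experiment. No untreated or m6A-deficient group was analysed here, and all cells had seen raised interleukin 15.

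m6A is a methyl mark that the METTL3 complex places on adenosines of mRNA, mostly within the 5-letter motif DRACH (a first base other than C, then a purine, then AC, then a last base other than G), and often in the last exon. SLAM family receptors sit on blood cells, and most bind a copy of themselves on a neighbouring cell, while CD244 (2B4) binds CD48. Their cytoplasmic tails carry tyrosine motifs that recruit the small SH2-domain adaptors SAP (Sh2d1a) and EAT-2 (Sh2d1b1 and Sh2d1b2). SAP in turn brings in the kinase FYN, and in NK cells these adaptors favour activation, whereas the same receptors can inhibit when the adaptors are missing.

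In these NK cells the transcripts of every listed gene carried at least 1 called m6A peak, but the peaks were mostly shallow. Ly9 stood apart with a peak of 10.9-fold over input at its terminal exon. Cd84 had the only other peak past 5-fold (9.48-fold), with a weak peak-calling log10 p of -1.69. The remaining 15 peaks ranged from 1.19-fold to 4.55-fold. A called peak and its fold describe fragments pulled down relative to input, not the amount of a transcript or the share of its copies that carry m6A. Significance is given below as the log10 of the unadjusted peak-calling p in the list, so that more negative values are more significant. Each peak has 1 value for all 4 libraries, so no fold below has an error between replicates, and the depth of the libraries is unknown. Whether folds of neighbouring size differ therefore could not be tested.

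To show what sequence lies under these peaks, 1 site per gene is printed, taken from the most significant peak of the gene that held a DRACH site. Sites whose 25 bases crossed an exon junction or ran past the end of the transcript were left out first. Where several remained in a peak, a site beginning with GGAC was preferred, and then the one nearest the centre of the peak. Each line is 25 bases of the transcript strand from GENCODE for GRCm38, 5′ to 3′, with the DRACH motif in capitals. A match marks letters in the sequence, not a measured methylated base, since the shortest member peak spans 61 bases.
Slamf6 chr1:171948697-171948721 (+), 3′ UTR: agcactgcagTGACTtgaggaaatt
Slamf7 chr1:171633580-171633604 (−), 3′ UTR: ctttctgaatGGACCtgccttgtaa
Cd244 chr1:171583360-171583384 (+), 3′ UTR: cacagtcatgTAACActgtgtatag
Cd48 chr1:171704966-171704990 (+), 3′ UTR: tggctctattGGACAaaggaaaatg
Ly9 chr1:171588804-171588828 (−), 3′ UTR: tttcttatctGGACTgccttgtctg
Cd84 chr1:171888831-171888855 (+), 3′ UTR: cctggggaaaGGACCctagggcact
Sh2d1a chrX:42515318-42515342 (+), coding sequence: tcccagacagAAACAggttcttgga
Sh2d1b1 chr1:170285143-170285167 (+), 3′ UTR: cacattacctGGACTctctattgag
Sh2d1b2 chr1:170252133-170252157 (+), 3′ UTR: gagaggaagcAAACAtgttgtcccc
Fyn chr10:39564177-39564201 (+), 3′ UTR: gttatttctcAGACTtggaaatgca

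Across the 17 peaks, 16 held a DRACH site, against 90.6% of the 20106 peaks of the list with exonic sequence. The letters GGAC were in 8 of 17 peaks against 55.8%. They were counted whatever base followed, so GGACG, which is not a DRACH form, is included. These shares rise with the length of a peak. Among peaks with 200 to 600 nt of sequence, 5 of 8 member peaks and 67.3% of all peaks held such a GGAC site, and among peaks of 50 to 100 nt it was 1 of 4 and 24.6%. The density was 23.0 DRACH sites per kb in the member peaks and 20.3 in all peaks. Of the 140 member sites, 57 lay in a single wide peak assigned to Ly9, which includes the exon under the strong Ly9 peak, so 10 sites were counted in both. With that stretch counted once there were 130 sites, at 23.3 per kb, and without the wide peak the density was 23.1 per kb. Only the transcript strand was searched, and overlapping sites were each counted.

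By significance, 12 of the 17 peaks had a peak-calling p under 0.001, against 61.5% of all peaks, and 8 of the 10 genes had such a peak, against 73.3% of protein-coding genes with a peak. Slamf6 and Sh2d1b2 were the 2 genes without one. By size, 2 of 17 peaks reached the fold enrichment of 5 that is called strong here, against 34.6% of all peaks, and 2 of 10 genes had a strong peak, against 43.4% of the 10174 protein-coding genes with a peak. All 10 members had a peak, and 46.3% of all 21951 annotated protein-coding genes did. The latter were not selected for expression in these cells. The median fold was 1.64 over the member peaks, 2.66 over all peaks and 2.37 over peaks of protein-coding genes. Among peaks with p under 0.001, the medians were 1.54 for the members and 2.12 for protein-coding genes. Between 1-fold and 2-fold there were 12 of the 17 member peaks, against 36.1% of all peaks. The plot of fold by gene shows this crowding toward low values.

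**Figure D1:**
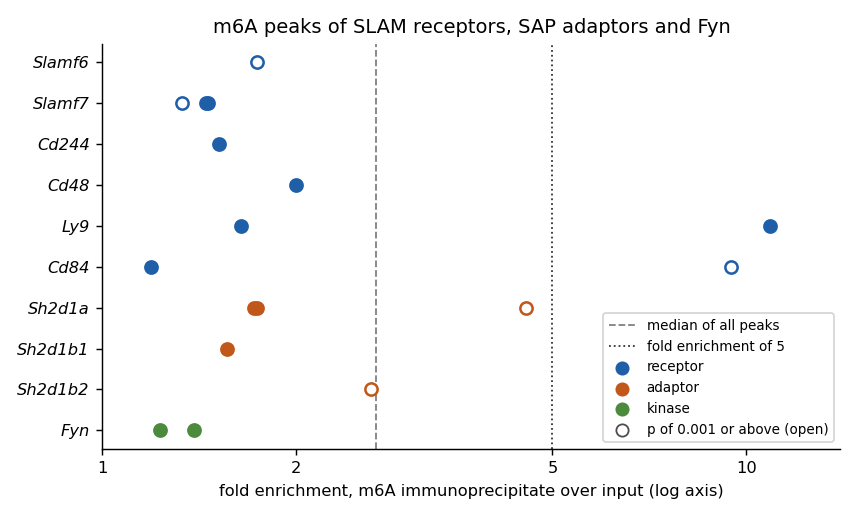
Fold enrichment of every m6A peak (1 point each, log axis) for the 10 genes, coloured by role, with open points for peaks whose p was 0.001 or above. Most points lie left of the dashed median of all peaks (2.66), and only Ly9 (10.9) and Cd84 (9.48) lie right of the dotted line at 5.

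Ly9 (CD229, a receptor that binds itself) gave the clearest signal of the set. Its strong peak lay at chr1:171588624-171591570 on the minus strand, at 10.9-fold and a log10 p of -161. It covered the whole last exon of the longest coding transcript (exon 10), with 66 nt of coding sequence (stop codon included, here and below) and all 436 nt of the 3′ UTR, and its centre was 185 nt past the stop codon. It reached into the alternative last exon of a shorter coding isoform by 35 nt. The 502 nt in exon 10 held 10 DRACH sites and held GGAC 2 times. The site printed for Ly9 is 244 nt past the stop codon. Of all peaks in the list, 98.7% were less significant and 78.8% had a lower fold. Both values were reached by 59 peaks (0.285%), this one included. Among the 274 peaks at least as significant, 21.5% also reached its fold, close to the 21.2% of all peaks that did. Strong peaks had a median log10 p of -3.53, and 1.03% of them were at least as significant as this one, against 1.32% of all peaks. The 274 peaks had a median fold of 2.54, against 2.66 over all peaks.

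**Figure D2:**
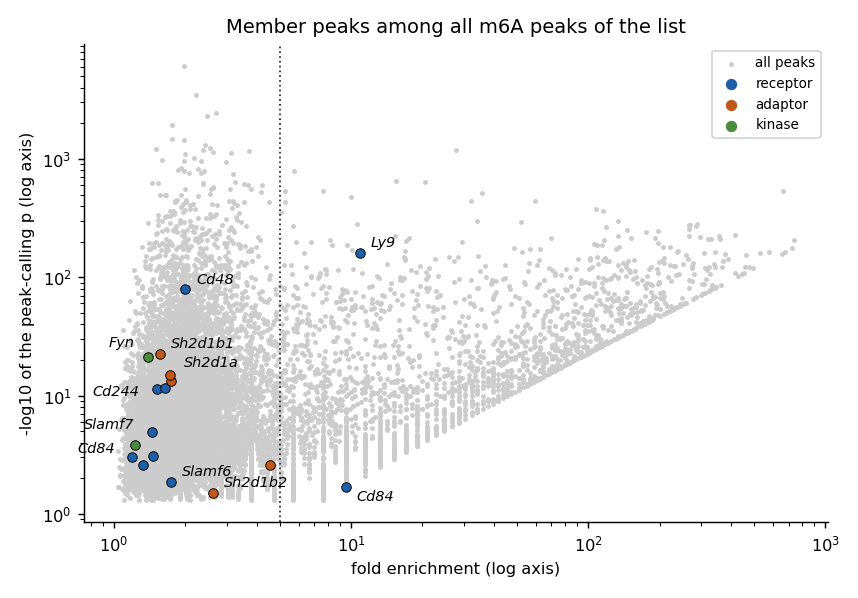
Fold enrichment (log axis) against the −log10 of the peak-calling p (log axis) for all peaks (grey) and the 17 member peaks, coloured by role. Ly9 is the one member high on both axes, Cd48 is high in significance at 2-fold, and the strong Cd84 peak lies at the lower edge of the cloud.

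A second peak carried the name Ly9, at 1.64-fold and a log10 p of -11.6. Its span, chr1:171585162-171608472, ran over all 10 exons of the gene, and the deposited list labelled it 5′ UTR. Neither end lay in an exon of Ly9. The lower end was 3462 nt from the nearest Ly9 exon and lay in the last exon (exon 9) of Cd244, a gene on the opposite strand, and the upper end was 1062 nt from the nearest Ly9 exon and lay in exon 6 of a nonsense-mediated decay isoform of Cd244. The span held 180 nt of Cd244 exons, 157 nt at the lower end and 23 nt at the upper end, and 3307 nt of Ly9 exons. No Cd244 isoform in the annotation had both ends in its exons. From the list alone, reads of Ly9 and of Cd244 in this span cannot be told apart. In the whole list, 4.98% of peaks had neither end in an exon of their assigned gene, and among the members it was this peak alone, since the other 16 of 17 had both ends in one (92.0% of all peaks).

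**Figure D3:**
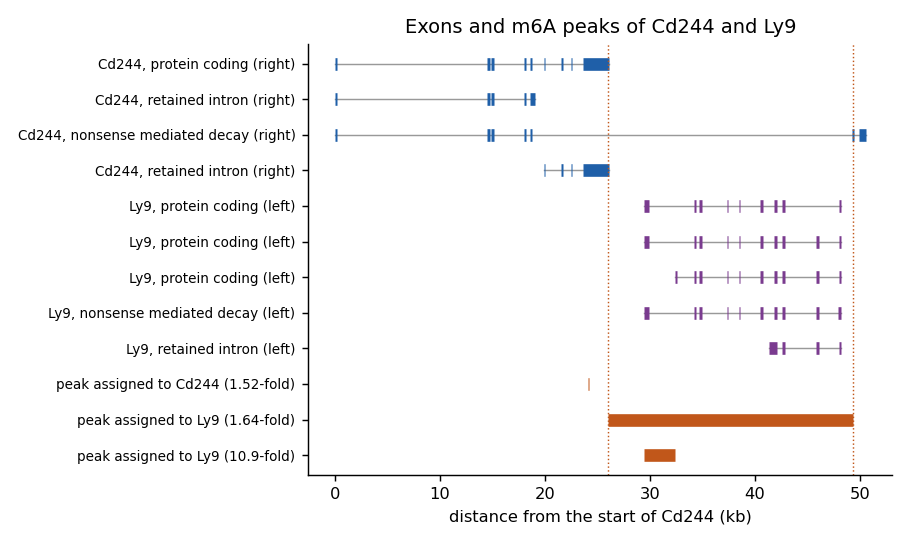
Annotated isoforms of Cd244 (blue, transcribed to the right) and Ly9 (purple, transcribed to the left) with their m6A peaks (orange), against the distance in kb from the start of Cd244. Dotted lines mark the ends of the 1.64-fold peak assigned to Ly9, and both meet a Cd244 exon and no Ly9 exon.

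Cd244 (2B4, an NK cell receptor that activates or inhibits according to its adaptors) had 1 peak of its own, at chr1:171583278-171583427, with 1.52-fold and a log10 p of -11.3. All 150 nt lay in exon 9, the last exon, and the centre was 468 nt into a 3′ UTR of 2434 nt. It held 4 DRACH sites and no GGAC form.

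Cd48 encodes the lipid-anchored ligand of CD244. Its single peak, at 2.0-fold and a log10 p of -78.8, was the second most significant of the set, and 96.5% of all peaks were less significant. The span chr1:171699636-171705228 crossed an intron and held 446 exonic nt, from exon 3 into the last exon 4, with 95 nt of coding sequence and 351 of the 379 nt of the 3′ UTR. Its centre was 128 nt past the stop codon, and both coding isoforms shared the covered 3′ UTR. It held 10 DRACH sites and held GGAC 3 times. CD48 is bound by CD244, and of this receptor and ligand pair the ligand transcript had the higher fold and the more negative log10 p. The Cd48 peak was also longer, with 446 exonic nt against 150 nt for Cd244, and whether the peaks differ was not tested.

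Slamf7 (CRACC, a receptor that signals through EAT-2 in NK cells) had 3 peaks, all on the minus strand of chromosome 1 and all shallow. The most significant, chr1:171633300-171633599, was 1.45-fold with a log10 p of -4.90 and lay 1475 nt past the stop codon. A short peak of 61 nt, chr1:171634586-171634646, was 1.33-fold with a log10 p of -2.61 and lay 309 nt past it. Both were in the 3′ UTR of the longest isoform. The third, chr1:171635730-171635905, was 1.46-fold with a log10 p of -3.11 and touched only the 3′ UTR of another isoform, 416 nt past its stop codon. All 176 nt of the latter also lay in an exon of Gm37787, an antisense gene on the plus strand. Whether the counting used strand is not given in the sources used here, so reads of the pair cannot be told apart.

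Slamf6 (Ly108, a self-binding receptor that signals through SAP) had 1 weak peak, chr1:171948035-171948742, at 1.74-fold and a log10 p of -1.87. It lay across the junction of exons 8 and 9 of the longest isoform, with 39 nt of coding sequence and 52 nt of 3′ UTR, and its centre was 7 nt past the stop codon, the nearest of all members. Only 2 of the 4 coding isoforms of Slamf6 reached the peak, and in the second of them its centre fell in the coding sequence. These 91 nt held 4 DRACH sites.

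Cd84 (a self-binding receptor found on many blood cells) had 2 peaks that did not share an isoform. The peak of 9.48-fold, chr1:171854757-171854966, touched 1 of 4 coding isoforms, a transcript of 2 exons with an open reading frame of 140 codons, and lay 2682 nt into its 3′ UTR. Its log10 p was -1.69, with 8.81% of the list less significant, and 845 peaks of the list carried exactly its pair of fold and log10 p. The other peak, chr1:171888837-171888956, was 1.19-fold with a log10 p of -3.03 and lay 299 nt past the stop codon of 2 other coding isoforms. It was the lowest fold of the set, and 1.48% of all peaks were lower. The high and the low fold of Cd84 thus lay in different 3′ UTRs, and the high one was the less significant.

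Among the adaptor genes, Sh2d1a, which encodes SAP and lies on chromosome X, had 3 peaks, and its 2 significant ones covered coding sequence. The first, chrX:42502632-42514352, was 1.74-fold with a log10 p of -13.2, and on the longest coding isoform it held 91 nt of the 5′ UTR and 137 nt of coding sequence in exon 1. The second, chrX:42514471-42521862, was 1.72-fold with a log10 p of -15.0 and ran from exon 2 to exon 4, with 244 nt of coding sequence and 41 nt of 3′ UTR, and its centre was 101 nt before the end of the stop codon. Between them these peaks covered the coding sequence of 126 codons and its stop codon. On this isoform they abutted without a gap, although their genomic spans did not meet. The first held 268 exonic nt, of which 228 were in coding isoforms. All 4 coding isoforms were touched by both. The 3′ UTR of Sh2d1a, 616 nt on this isoform, was otherwise without a peak.

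The third Sh2d1a peak, chrX:42522635-42522814, reached 4.55-fold with a log10 p of -2.59. It lay wholly in exon 4 of an isoform annotated as a processed transcript without a reading frame, and touched no coding isoform. It was also the only member peak without a DRACH site, over 180 nt, where 91.6% of all peaks of 100 to 200 nt had one. In the list 12 peaks, this one included, had its exact pair of fold and log10 p. No member outside Sh2d1a had a peak centred in coding sequence on the isoform used, apart from the wide peak assigned to Ly9.

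**Figure D4:**
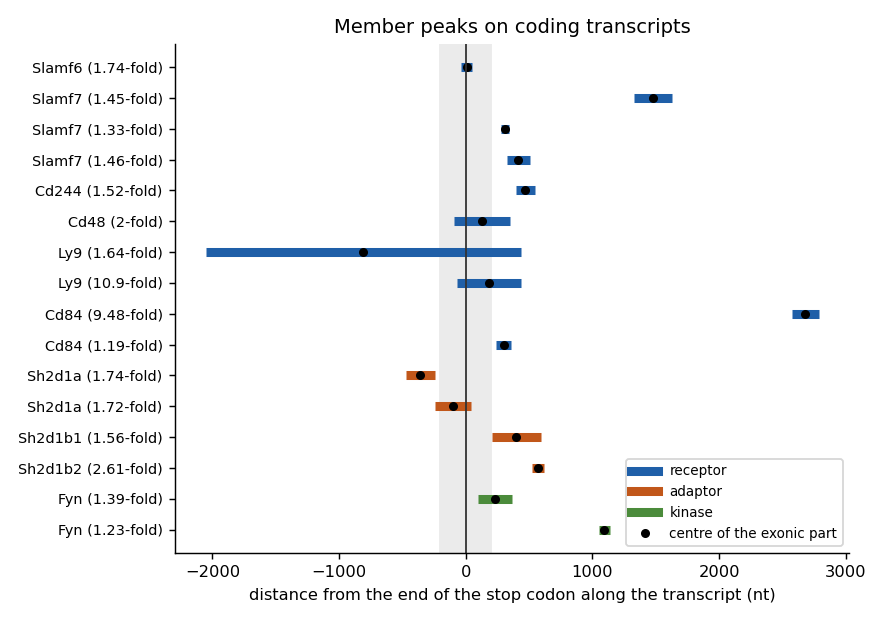
Extent of the 16 member peaks that touch a coding isoform, along that isoform, in nt from the end of the stop codon (0); bars are the exonic part, dots its centre, and grey marks 200 nt on either side. Sh2d1a and the 1.64-fold Ly9 peak have their centres left of 0, and all others lie to the right, from 7 to 2682 nt.

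Sh2d1b1 and Sh2d1b2 are neighbouring copies that encode the EAT-2 adaptors, which lack the FYN-binding mode of SAP. Sh2d1b1 had a peak of 1.56-fold with a log10 p of -22.5 at chr1:170284884-170285273, which covered nt 204 to 593 of its 3′ UTR. Sh2d1b2 had a peak of 2.61-fold with a log10 p of -1.51 at chr1:170252113-170252203, which covered nt 526 to 616 of its own. The copy with the higher fold thus had the weaker log10 p, and 4.52% of the list was less significant still. In the list 12 peaks had exactly the values of the Sh2d1b2 peak.

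The transcripts of the EAT-2 genes were similar, with 92.7% identical bases over 396 aligned coding positions and 90.5% over 1976 aligned 3′ UTR positions. Gaps are left out of these percentages, and the 3′ UTRs were 2089 nt in Sh2d1b1 and 2021 nt in Sh2d1b2. In the alignment their peaks overlapped by 80 positions, and the Sh2d1b2 peak corresponded to nt 516 to 604 of the Sh2d1b1 3′ UTR. The Sh2d1b1 peak was 95.4% identical to its counterpart, and the Sh2d1b2 peak 88.8%. The longest stretch of the Sh2d1b1 peak found unbroken in the other transcript was 89 nt, and for the Sh2d1b2 peak it was 23 nt. None of the 489 windows of 100 nt that touch the Sh2d1b1 peak, or the 190 that touch the Sh2d1b2 peak, was identical in the other transcript. Fragments within the shared 89 nt of the Sh2d1b1 peak would be the same in both copies, and reads aligned with mismatches could be placed on either. How such reads were treated is not given in the sources used here, so the folds of this pair are uncertain.

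The 3′ UTRs held 47 DRACH sites in Sh2d1b1 and 46 in Sh2d1b2, of which 34 stood at the same aligned position. A single one of these lay inside both peaks, 546 nt past the stop codon in Sh2d1b1 and 558 nt in Sh2d1b2. It is shown because it is the only shared motif under both peaks, with DRACH in capitals.
Sh2d1b1 chr1:170285214-170285238 (+), 3′ UTR: ctgaaggagcAAACAtgtccttcct
Sh2d1b2 chr1:170252133-170252157 (+), 3′ UTR: gagaggaagcAAACAtgttgtcccc

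**Figure D5:**
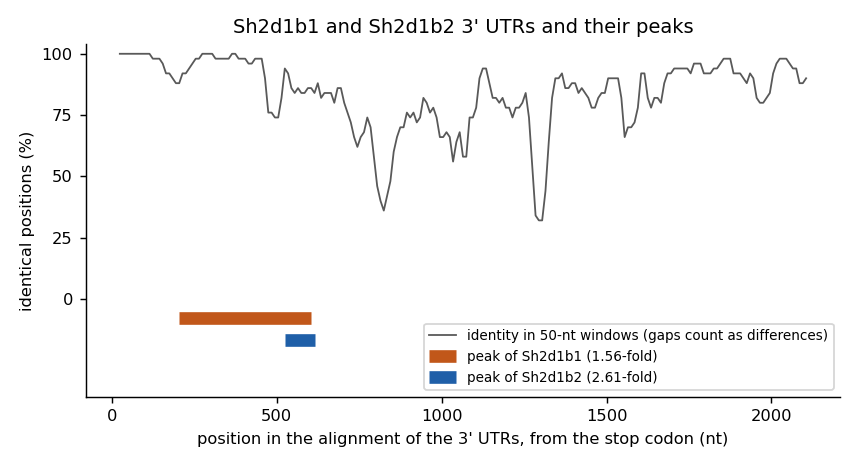
Identity between the 3′ UTRs of Sh2d1b1 and Sh2d1b2 in windows of 50 nt along their alignment, from the stop codon, with the extent of each peak below as a bar. Gaps count as differences here, and some windows fell as low as 32%. The peaks overlap by 80 aligned positions, and the Sh2d1b2 bar lies at the 3′ side of the Sh2d1b1 bar.

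Fyn (a SRC-family kinase that binds SAP) had 2 shallow peaks in its last exon 14. The stronger, chr10:39564066-39564335, was 1.39-fold with a log10 p of -21.0, lay 228 nt past the stop codon and was shared by 6 of the 8 coding isoforms. The second, chr10:39565022-39565112, was 1.23-fold with a log10 p of -3.85, lay 1095 nt past the stop codon and was shared by 2 of them. The first held 9 DRACH sites and the second 1, none of them a GGAC form. So a highly significant peak was at the same time one of the lowest in fold: 86.9% of all peaks were less significant and 8.89% had a lower fold. An antisense gene, Gm16365, spans both peaks but has 0 exonic nt in them.

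By position, 14 of the 17 peaks could be placed on the longest coding transcript of their gene. The centre lay in the 3′ UTR in 11 of the 14, or 78.6%, against 56.5% of the 15721 peaks placed in this way, in the coding sequence in 3, or 21.4% against 33.6%, and in the 5′ UTR in 0, against 9.94%. Within 200 nt of the stop codon there were 4 of the 14 centres, those of Slamf6, Cd48, Ly9 and one of Sh2d1a, against 22.3%. In the labels of the deposited list, 14 of the 17 peaks were 3′ UTR (53.3% of all peaks), 2 were 5′ UTR (18.5%) and 1 was an exon (28.2%). The 17 peaks had a median of 210 exonic nt, against 240 over all peaks that touch an exon, and a median GC content of 45.7% against 48.1%. A single peak was found in 5 of the 10 genes, 2 in 3 genes and 3 in 2 genes, and among protein-coding genes with a peak these shares were 53.3%, 27.0% and 11.8%.

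Of 25 other genes of the pathway, 22 had a peak, 20 had one with p under 0.001 and 8 had a strong one (36.4% of the 22). Among all protein-coding genes, 46.3% had a peak. Of those with a peak, 73.3% had one with p under 0.001 and 43.4% a strong one. The 46 peaks of the pathway genes had a median fold of 2.09, against 1.64 for the members and 2.66 for all peaks. The 21 signalling partners of SLAM receptors gave 18 genes with a peak and 6 with a strong one. Among the 25 pathway genes, the 5 highest folds were at Cbl (81.6-fold), Lyn (45.5-fold), Plcg1 (39.8-fold), Slamf8 (32.2-fold) and Ptpn11 (26.6-fold). Cbl is an E3 ubiquitin ligase, Lyn a SRC-family kinase and Plcg1 a phospholipase C, and Ptpn11 encodes the phosphatase SHP-2. The log10 p of these peaks was -18.5 at Cbl, -19.5 at Lyn, -8.96 at Plcg1, -6.79 at Slamf8 and -5.48 at Ptpn11. Some of these values were not distinct, since exactly the same fold and log10 p were carried by 7 peaks of the list for Cbl, 60 for Slamf8 and 70 for Ptpn11, the named peak included. In 5 of the 8 genes with a strong peak (Slamf8, Lyn, Plcg1, Ptpn11 and Pik3r1) the strongest peak touched no exon of a coding isoform. The one at Pik3r1 was 11.4-fold with a log10 p of -2.09, and 532 peaks had exactly these values. At Cbl, Slamf1 and Dok1 the strongest peak covered 142, 89 and 510 nt of coding isoforms. The Dok1 peak was 7.24-fold with a log10 p of -98.5, values that no other peak carried. Among the 4 further CD2 and SLAM family genes, Slamf1 had a peak of 24.7-fold (log10 p of -5.04, values carried by 78 peaks) and Slamf8 one of 32.2-fold, while Slamf9 reached 2.07-fold and Cd2, the namesake receptor of the family, 2.28-fold with a log10 p of -64.4.

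Defining genes of NK cells had a peak in 7 of 7 cases, from 1.12-fold to 2.35-fold, with 0 strong. So did 3 of 5 T cell genes (not Cd4 or Cd8a, 1.39-fold to 31.6-fold, 3 genes strong) and 5 of 5 myeloid genes (1.12-fold to 3.56-fold, 0 strong). Among all protein-coding genes, 46.3% had a peak, and 43.4% of those had a strong one. Several listed genes are also expressed in T or myeloid cells, and a peak is not a level of expression, so the part of other cells in the member peaks was not tested.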

How the data were processed

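m6A was profiled by methylated RNA immunoprecipitation sequencing in splenic NK cells, with 2 immunoprecipitates and 2 input libraries grouped by the labels. Per the labels and the study's methods, the authors trimmed reads, aligned them with HISAT2 to GRCm38, called peaks with exomePeak and annotated them with ChIPseeker. The deposited fold enrichment is a ratio of immunoprecipitate over input made by the authors. The deposited significance is a score, the log10 of the unadjusted peak-calling p. Columns with a value per sample numbered 0, so depth and replicate error are unknown, and how the authors combined replicates is not given in the sources used here.

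From 20751 rows, 24 exact repeats were removed. Peaks were placed on GENCODE M21 models (GRCm38) by the centre of their exonic part on the coding transcript of the gene with the most exonic nt. A peak that missed this transcript was described on the isoform of the gene with the most overlap. DRACH sites were counted on the transcript strand. Sh2d1b1 and Sh2d1b2 were aligned globally with Biopython 1.88 (match 2, mismatch -3, gap opening -6, extension -1, end gaps free). Placement was tested on 2000 simulated peaks, and motif counts on 2000 simulated sequences that held GGACT as their only motif. No statistical test was run, since each peak has 1 value, and shares over all peaks are given for comparison.

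The members and lists were chosen with earlier results of these data known. Named genes were all 10 members, the 5 pathway genes with the highest fold and the 4 CD2 and SLAM family genes. Pik3r1, Dok1 and the antisense genes were named after their values were seen. Alternatives changed the fold and p thresholds, the isoform, the centre, the stop codon window and the motif. The marker list of 1 further cell type is not reported here.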

Additional observations from a re-analysis of the deposited data

How the results depend on the processing

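Of 28 alternative values for 7 results, 20 stayed within 1.5 times the count or within a 95% interval for counting error, and 8 moved. At a fold of at least 2 the members had 5 of their 17 peaks left, in 5 genes. Of all peaks, 36.1% fell below that limit, and the share of all genes is not given here. At a fold of at least 5 the members had 2 peaks in 2 genes. The shares at that limit were 34.6% of all peaks and 43.4% of protein-coding genes with a peak. With 10 as the limit for a strong peak, 1 gene (Ly9) was left. No share of all genes is given for 10 either, but 21.2% of all peaks reached the 10.9-fold of the Ly9 peak. Within 100 nt of the stop codon the share of centres was 7.14% (12.6% of all placed peaks). Within 200 nt, the main setting, it was 28.6% (22.3%), and within 400 nt 57.1% (36.0%). The members' share was thus below that of all placed peaks only in the narrowest window, which held the Slamf6 centre alone. These shares rest on 14 member centres, and whether they differ from those of all placed peaks was not tested. Counting GGAC, whatever base followed, in place of DRACH gave 4.44 sites per kb, against 3.74 in all peaks. Each of these alternatives used a narrower or wider definition than the main result. The share of centres in the 3′ UTR ranged from 64.3%, by the centre of the genomic span, to 82.4%, by the labels of the deposited list. The alternatives of any coding isoform, and of leaving out the wide Ly9 peak, were chosen after seeing the data. No paired analysis was possible because the list gives no value per sample, and for the same reason no replicate could be left out. Library depth is unknown, and a gene or stretch without a peak cannot be read as lacking m6A.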

Other observations

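The 6 listed receptors and ligands lie within 394 kb of chromosome 1 (171559193 to 171953170, GRCm38). That stretch held 12 peaks of the list, 10 of them assigned to the members. The other 2 were the Slamf1 peak at 24.7-fold (log10 p of -5.04), which had 89 nt in a coding isoform, and a peak at the predicted gene Gm10521 at 3.79-fold (log10 p of -1.98).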
